A study of Mus musculus with 6 samples.

Results

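Genomic imprinting, in which a gene is read from 1 parental allele, was examined in mouse heart through 10 genes: H19, Igf2, Igf2r, Meg3, Dlk1, Cdkn1c, Peg3, Mest, Plagl1 and Grb10. They were found by symbol in the deposited table, which holds 1 row for each, so they are 10 of 26835 genes. H19 was picked because it was low in both CFZ libraries and near control in CFZ_EA, so its own values below are a description without a test, and the other genes were set beside it because they are imprinted. The study asked how carfilzomib, an irreversible proteasome inhibitor used against multiple myeloma, and electroacupuncture alter cardiac gene expression. Hearts came from C57BL/6 mice of 7 to 8 weeks weighing 20 g ± 2, whose genotype is labelled "wide type". The control group was given 10% DMSO intraperitoneally. The CFZ group was given carfilzomib intraperitoneally at 8 mg/kg. The CFZ_EA group was given the same dose of carfilzomib and electroacupuncture, a current passed through needles, at the forelimb acupoint PC6. Days 0, 2, 4 and 6 are listed for all 3 groups without an event for any of them. Each group had 2 libraries.

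Imprinted genes are marked in the germ line by DNA methylation at control regions, and many of them govern fetal growth and are turned down after birth. Igf2 is a fetal growth factor read from the paternal allele, and H19 is a long noncoding RNA read from the maternal allele beside it. A methylation-sensitive insulator bound by CTCF lies between them and decides which of the pair reaches their shared enhancers. The genes are called a network because the zinc finger factor Plagl1 and the H19 RNA have each been shown to influence the expression of several of the others. These libraries measure polyadenylated RNA from both alleles together, so nothing here bears on which allele was read.

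The H19 RNA carries a microRNA hairpin, miR-675, which is shown here because it is the short RNA product of the gene on which these results turn. Its RefSeq position is chr7:142577064-142577147 on the minus strand of GRCm38.p6, and it spans bases 240 to 323 of the 1521-base GENCODE transcript H19-205. The capitals mark the 5p and 3p mature arms of the hairpin.
Mir675 hairpin: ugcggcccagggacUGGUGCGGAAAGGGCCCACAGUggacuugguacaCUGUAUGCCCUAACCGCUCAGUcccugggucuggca
Mature arms from the hairpins inside H19, Igf2 and Mest, from RefSeq, follow with the seed, bases 2 to 8, in capitals.
miR-675-5p (H19): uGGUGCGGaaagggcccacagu
miR-675-3p (H19): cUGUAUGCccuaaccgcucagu
miR-483-5p (Igf2): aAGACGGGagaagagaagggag
miR-483-3p (Igf2): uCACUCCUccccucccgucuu
miR-335-5p (Mest): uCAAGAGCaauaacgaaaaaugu
miR-335-3p (Mest): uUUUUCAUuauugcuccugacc
Each of these seeds occurred in 1 mature arm among all the mature arms listed inside the 10 gene models. The libraries were selected on oligo(dT) and sized for messenger RNA, so the values below are for the host transcripts, not for the mature microRNAs. The separate Mir675 row held 10 counts over all 6 libraries, against 11872 for H19.

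RefSeq promoter windows of 300 bases were matched for 8 of the 10 genes, 15 windows in all, and H19 and Cdkn1c had no entry. Igf2 has 4 annotated starts, whose windows held between 2 and 24 CpG dinucleotides, against a median of 7 over all 32851 windows. The most CpG-rich of them, chr7:142658755-142659054 on the minus strand, is printed with its CpG dinucleotides in capitals, since CpG methylation is the mark on which imprinting rests. The deposited values are per gene and do not say which start was used.
Igf2 promoter: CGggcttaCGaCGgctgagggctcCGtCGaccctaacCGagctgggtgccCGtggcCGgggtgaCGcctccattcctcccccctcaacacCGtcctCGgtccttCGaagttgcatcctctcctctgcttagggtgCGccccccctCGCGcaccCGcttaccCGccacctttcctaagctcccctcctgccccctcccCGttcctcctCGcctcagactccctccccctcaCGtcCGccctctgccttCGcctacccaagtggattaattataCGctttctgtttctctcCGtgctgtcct
Plagl1 is known to bind GC-rich sites such as GGGGCCCC, a palindrome that reads the same on both strands. That motif was in 1 of the 15 windows of these genes and in 1.08% of all windows. The window that held it was that of Peg3, chr7:6730370-6730669 on the minus strand, printed here with the motif in capitals.
Peg3 promoter: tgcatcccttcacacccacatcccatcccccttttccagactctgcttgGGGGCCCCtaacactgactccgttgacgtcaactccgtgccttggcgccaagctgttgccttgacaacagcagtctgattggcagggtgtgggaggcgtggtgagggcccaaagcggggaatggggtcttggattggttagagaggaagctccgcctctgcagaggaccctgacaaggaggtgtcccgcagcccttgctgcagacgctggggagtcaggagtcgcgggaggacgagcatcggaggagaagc
The control region between H19 and Igf2 lies outside these windows and was not analysed here.

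Of the 10 genes, 5 had a mean of over 6 FPKM in these hearts and 4 had a mean under 1 FPKM. Levels between genes are compared as FPKM, fragments scaled to transcript length and to the depth of the library. Over the 6 libraries the means ran from Igf2r at 13.1 FPKM through H19 at 11.7, Cdkn1c at 8.49, Igf2 at 8.03 and Grb10 at 6.78 FPKM. The ranges of neighbours among these 5 genes overlapped, so their order was not separated beyond the spread of the libraries. Mest, at 2.15 FPKM, lay below Grb10 in 6 of 6 libraries with no overlap. Meg3, at 0.948 FPKM, Peg3, at 0.437, and Plagl1, at 0.358, followed with overlapping ranges. Dlk1, at 0.0570 FPKM, lay below all of them with no overlap and rested on 11 to 34 counts per library. Tests used the genes with a mean of at least 1 FPKM, 10329 in all, among which were H19, Igf2, Igf2r, Cdkn1c, Mest and Grb10. Meg3, Peg3, Plagl1 and Dlk1 were under that level, and their fold changes come from the same fit without a filter on low values.

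**Figure D1:**
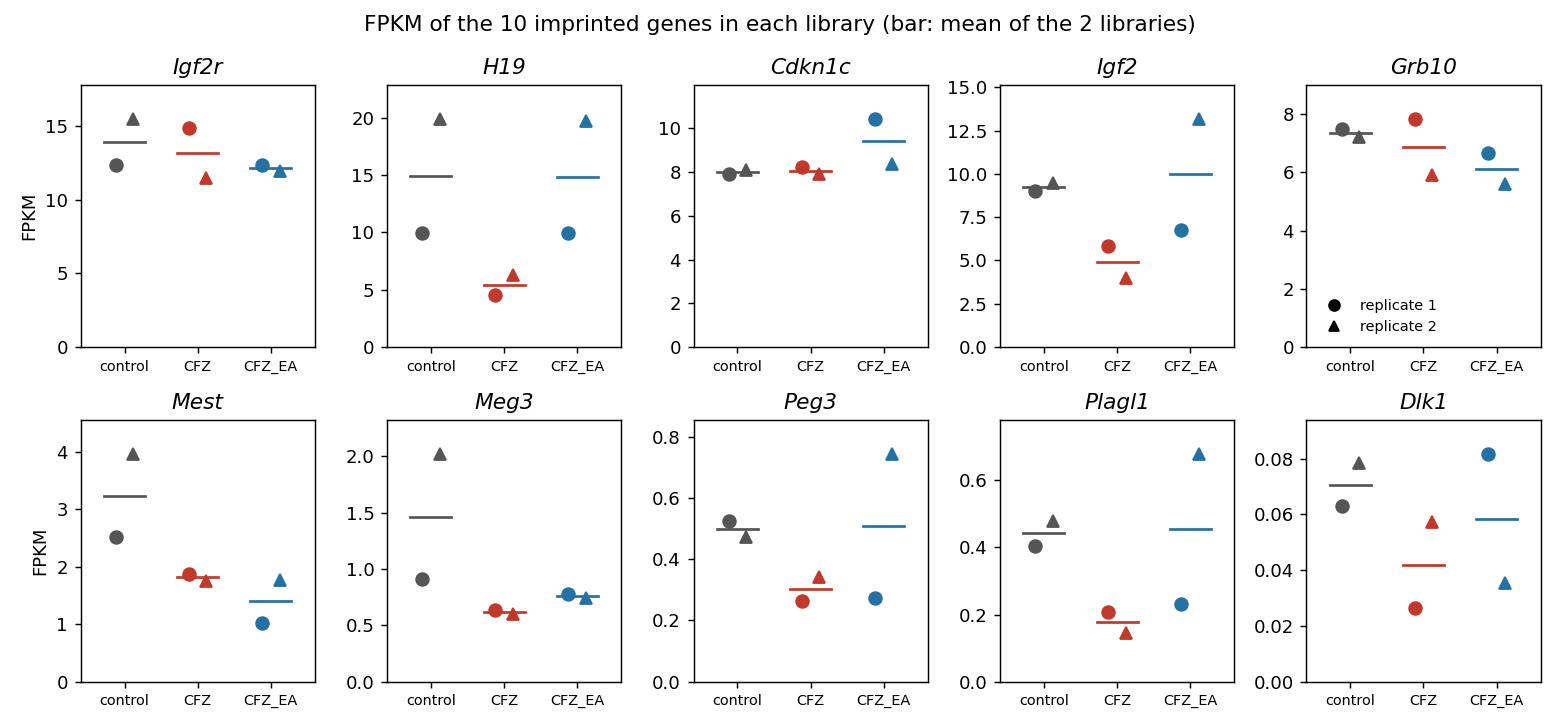
FPKM (vertical axes, each from 0) of the 10 genes in the control, CFZ and CFZ_EA libraries; circles are replicate 1, triangles replicate 2 and bars the mean of the 2 libraries. H19 is at 4.57 and 6.28 FPKM in CFZ and at 9.93 FPKM or more in the other 4 libraries, whereas Igf2r, Cdkn1c and Grb10 stay within 1.40-fold over all 6.

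H19 (ENSMUSG00000000031, chromosome 7, 142575529 to 142578143, GRCm38, minus strand, a long intergenic noncoding RNA gene) measured 9.96 and 19.9 FPKM in the control libraries. It measured 4.57 and 6.28 FPKM in the CFZ libraries. It measured 9.93 and 19.7 FPKM in the CFZ_EA libraries. Both CFZ libraries lay below all others, and the control and CFZ_EA pairs covered nearly the same range, each with replicate 2 high. The mean was 14.9 ± 7.01 FPKM in control, 5.42 ± 1.21 in CFZ and 14.8 ± 6.89 in CFZ_EA (SD, n = 2 each). On counts scaled with TMM factors, the log2 fold change was -1.37 ± 0.44 (SE) for CFZ against control, 1.45 ± 0.44 for CFZ_EA against CFZ and 0.08 ± 0.43 for CFZ_EA against control. Without control replicate 2 the first was -0.88, and without CFZ_EA replicate 2 the second was 0.86. For CFZ_EA against control it was -0.52 without CFZ_EA replicate 2 and 0.57 without control replicate 2. These comparisons share libraries, so the low CFZ values enter both of the first 2.

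Igf2 (ENSMUSG00000048583, chromosome 7, 142650766 to 142666816, minus strand) encodes insulin-like growth factor 2, and its gene model lies 72.6 kb from that of H19. Igf2 measured 9.02 and 9.45 FPKM in control, which lay close together. It measured 5.81 and 3.98 FPKM in CFZ. It measured 6.77 and 13.2 FPKM in CFZ_EA. As with H19, both CFZ libraries lay below the other 4, while CFZ_EA replicates 1 and 2 lay on either side of control. The log2 fold change of Igf2 was -0.87 ± 0.33 for CFZ against control (adjusted p = 0.621) and 1.05 ± 0.33 for CFZ_EA against CFZ (adjusted p = 0.9997), with p-values from the quasi-likelihood test of edgeR and adjusted over all tested genes after Benjamini and Hochberg. For CFZ_EA against control it was 0.18 ± 0.33 (edgeR adjusted p = 0.942). None of the 3 passed, and the smallest adjusted p for Igf2 over the alternatives was 0.232. Without CFZ_EA replicate 2 the log2 fold change for CFZ_EA against CFZ was 0.47, and that for CFZ_EA against control was -0.40.

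The ratio of H19 to Igf2 did not separate the groups. In FPKM it was 1.10 and 2.10 in control, 0.786 and 1.58 in CFZ, and 1.47 and 1.496 in CFZ_EA. The CFZ libraries thus had low levels of both genes, with ratios inside the span of the other libraries for replicate 2 and below it for replicate 1. Across the 6 libraries Pearson's r of log2 CPM between Igf2 and H19 was 0.82, given as a description, since the libraries share the group structure by which H19 was picked.

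**Figure D2:**
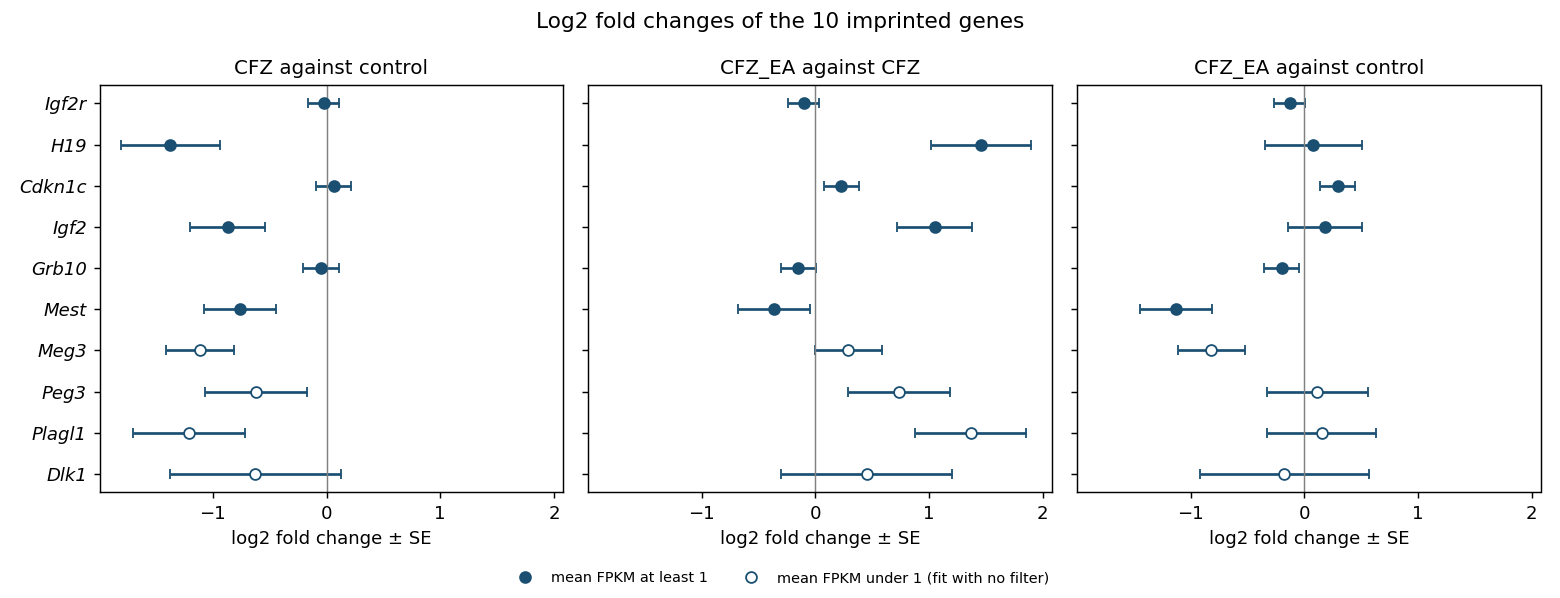
Log2 fold changes (horizontal axis, with SE bars) of the 10 genes in the 3 comparisons; filled points come from the fit of genes with a mean of at least 1 FPKM, open points from the fit without a filter. H19, at -1.37 and 1.45, and Plagl1, at -1.21 and 1.36, lie farthest from 0 in the first and second panels. Igf2r, Cdkn1c and Grb10 lie nearest to 0 in the first, and none of them exceeds 0.29 in any panel.

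For Igf2r, Grb10 and Cdkn1c the CFZ and control libraries overlapped. In CFZ_EA both libraries lay below control for Igf2r and Grb10 and above it for Cdkn1c, and none of these differences passed the test. Igf2r, the mannose 6-phosphate receptor that takes up and degrades IGF2, measured 12.4 and 15.5 FPKM in control, 14.9 and 11.5 in CFZ, and 12.4 and 11.9 in CFZ_EA. The log2 fold changes were -0.03 ± 0.14, -0.10 ± 0.14 and -0.13 ± 0.14 for CFZ against control, CFZ_EA against CFZ and CFZ_EA against control (edgeR adjusted p = 0.978, 0.9997 and 0.899). Per unit of Igf2 FPKM, Igf2r stood at 1.37 and 1.64 in control, 2.56 and 2.88 in CFZ, and 1.82 and 0.907 in CFZ_EA. Airn, the antisense RNA of the Igf2r locus, measured 0.984 and 1.27 FPKM in control, 0.870 and 0.863 in CFZ, and 0.829 and 1.303 in CFZ_EA, and because use of strand in the counting is not given in the sources used here, its reads and those of Igf2r may not be fully separate.

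Grb10, an adaptor that inhibits the insulin and IGF1 receptors, measured 7.48 and 7.22 FPKM in control, 7.83 and 5.90 in CFZ, and 6.67 and 5.59 in CFZ_EA. Its log2 fold changes were -0.05 ± 0.16, -0.15 ± 0.16 and -0.20 ± 0.16 in the same order (edgeR adjusted p = 0.947, 0.9997 and 0.876). Cdkn1c, the cyclin-dependent kinase inhibitor p57, lies 792 kb from Igf2 in the neighbouring imprinted domain. It measured 7.90 and 8.11 FPKM in control, 8.22 and 7.93 in CFZ, and 10.4 and 8.39 in CFZ_EA. Both CFZ_EA libraries lay above the other 4, with log2 fold changes of 0.23 ± 0.15 against CFZ and 0.29 ± 0.15 against control (edgeR adjusted p = 0.9997 and 0.848). Without CFZ_EA replicate 1 they were 0.09 and 0.16. For CFZ against control the log2 fold change of Cdkn1c was 0.07 ± 0.15 (edgeR adjusted p = 0.926).

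Mest, an alpha/beta hydrolase-fold protein read from the paternal allele, showed a different order from H19. It measured 2.51 and 3.97 FPKM in control, 1.88 and 1.75 in CFZ, and 1.03 and 1.77 in CFZ_EA. All 4 libraries of the carfilzomib groups lay below both control libraries, the lowest being CFZ_EA replicate 1. The log2 fold changes were -0.76 ± 0.32 for CFZ against control, -0.37 ± 0.32 for CFZ_EA against CFZ and -1.13 ± 0.32 for CFZ_EA against control (edgeR adjusted p = 0.647, 0.9997 and 0.848). Without control replicate 2 the first was -0.48, and without CFZ_EA replicate 1 the second was -0.01. Copg2 runs antisense through the Mest model with 11506 counts over the 6 libraries against 3372 for Mest, so reads of the pair may not be fully separate either.

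Plagl1, the zinc finger factor of the network, measured 0.405 and 0.479 FPKM in control, 0.209 and 0.146 in CFZ, and 0.232 and 0.679 in CFZ_EA. Its CFZ libraries lay below the other 4, as for H19 and Igf2. In the fit without a filter its log2 fold changes were -1.21 ± 0.49, 1.36 ± 0.49 and 0.15 ± 0.48 for the 3 comparisons (edgeR adjusted p = 0.795, 1 and 1). Without CFZ_EA replicate 2 they were 0.39 for CFZ_EA against CFZ and -0.82 for CFZ_EA against control. Peg3, a zinc finger protein of the paternal allele, measured 0.526 and 0.474 FPKM in control, 0.264 and 0.341 in CFZ, and 0.272 and 0.744 in CFZ_EA. Its log2 fold changes were -0.62 ± 0.45, 0.73 ± 0.45 and 0.11 ± 0.44 (edgeR adjusted p = 0.804, 1 and 1), and without CFZ_EA replicate 2 the last 2 were -0.18 and -0.80. For both genes the CFZ_EA mean was set by replicate 2.

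At the Dlk1 and Meg3 domain of chromosome 12, the noncoding genes were high in 1 control library. Meg3, a maternally read long noncoding RNA, measured 0.909 and 2.02 FPKM in control, 0.635 and 0.601 in CFZ, and 0.780 and 0.743 in CFZ_EA. All 4 carfilzomib libraries lay below both control libraries, and control replicate 2 stood apart. The CFZ libraries were the lowest of all, as for H19, Igf2 and Plagl1. The log2 fold changes without a filter were -1.11 ± 0.30 for CFZ against control, 0.29 ± 0.30 for CFZ_EA against CFZ and -0.82 ± 0.30 for CFZ_EA against control (edgeR adjusted p = 0.699, 1 and 0.892). Without control replicate 2 the comparisons with control gave -0.53 and -0.24. Without control replicate 1, where control was replicate 2 alone and was assumed to vary like the other groups, they were -1.52 and -1.23 and passed (edgeR adjusted p = 0.0183 and 0.0421). Rian and Mirg, noncoding genes downstream of Meg3 in the same domain and chosen for that position, stood at 1.39 and 0.303 FPKM in control replicate 2 and at no more than 0.338 and 0.126 FPKM in the other 5 libraries. Dlk1, a transmembrane inhibitor of adipocyte differentiation read from the paternal allele, measured 0.0631 and 0.0783 FPKM in control, 0.0266 and 0.0571 in CFZ, and 0.0817 and 0.0353 in CFZ_EA, and its log2 fold changes of -0.63 ± 0.75, 0.45 ± 0.75 and -0.18 ± 0.74 were no larger than their errors (edgeR adjusted p = 0.860, 1 and 1). For Dlk1 the value for CFZ_EA against CFZ was -0.26 without CFZ_EA replicate 1 and -0.03 without CFZ replicate 1, and that for CFZ_EA against control was 0.30 without CFZ_EA replicate 2.

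Counted over the 10 genes, H19, Igf2, Meg3, Dlk1, Peg3, Mest and Plagl1 had both CFZ libraries below both control libraries, that is 7 of 10, and 0 had both above. Of all listed genes 20.7% were lower in that way and 8.86% were higher, and since H19 was picked on this contrast nothing is read from the difference. For CFZ_EA against CFZ, H19, Igf2, Meg3, Cdkn1c and Plagl1 had both libraries above, 5 of 10, where all genes gave 15.5%, and 0 had both below, where all genes gave 12.6%. H19 was picked on this contrast too and the same CFZ libraries enter it, so nothing is read from this difference either. For CFZ_EA against control 4 of 10 were below (Igf2r, Meg3, Mest and Grb10), where all genes gave 18.2%, and Cdkn1c was above, where they gave 9.61%. H19 and Igf2, and Meg3 and Dlk1, share a domain, so the 10 genes are not replicates of one another.

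Of the 5 tested genes other than H19, 0 passed edgeR's quasi-likelihood test in any comparison, and DESeq2 and limma also called 0. At an unadjusted p under 0.05 there was 1 in each comparison: Igf2 for CFZ against control, Igf2 for CFZ_EA against CFZ and Mest for CFZ_EA against control. Over all tested genes edgeR called 0.029% for CFZ against control, 0.0194% for CFZ_EA against CFZ and 0% for CFZ_EA against control. At an unadjusted p under 0.05 the shares were 7.72%, 3.09% and 5.13%. With 2 libraries a group, a gene can differ by severalfold without passing, so the absence of a call does not show that the groups were alike. Nothing in the labels tells whether replicates are different animals, and the spread on which the p-values rest may therefore be technical.

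Other imprinted genes were taken from lists of maternally and paternally expressed genes that leave out the 10 above. Several of these are imprinted in placenta or brain rather than in every tissue. Of 19 further maternally expressed genes 9 were tested, of which 5 were higher in CFZ and 4 lower. Their median log2 fold change was 0.05, against -0.003 over all tested genes. By edgeR 0 of them passed, 1 at an unadjusted p under 0.05, and by DESeq2 0. That 1 was Osbpl5, named for its p-value, with a log2 fold change of -0.45 ± 0.18 (edgeR adjusted p = 0.639). Of the 9, 2 had both CFZ libraries below both control libraries, where 2148 of the 10329 tested genes did, and 0 had both above. The tetraspanin gene Cd81 (means 96.6, 97.1 and 93.8 FPKM in control, CFZ and CFZ_EA) and Gnas, the stimulatory G protein subunit (56.4, 53.7 and 53.7 FPKM), had log2 fold changes of 0.07 ± 0.11 and -0.01 ± 0.12 for CFZ against control. Nap1l4, a nucleosome assembly protein gene, had 0.33 ± 0.14. Tssc4 measured 2.86 and 3.59 FPKM in control, 2.89 and 8.25 in CFZ, and 3.13 and 7.79 in CFZ_EA, so that its log2 fold change of 0.86 ± 0.62 came from replicate 2.

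Of 29 further paternally expressed genes 27 were in the table and 11 were tested. In CFZ 5 of these were higher and 6 lower, with a median of -0.04. By edgeR 0 passed, 0 at an unadjusted p under 0.05, and by DESeq2 0. Of the 11, 6 had both CFZ libraries below both control libraries, where 20.8% of all tested genes did. Copg2, among the 5 counted as higher (0.10 ± 0.18), is doubtful as a paternally expressed gene, and its place on the list was not checked. Snrpn, a spliceosome protein gene of the Prader-Willi region, had means of 30.4, 30.8 and 27.98 FPKM in control, CFZ and CFZ_EA, and its log2 fold change in CFZ was 0.07 ± 0.15 relative to control. The noncoding gene Peg13 had 0.24 ± 0.15 and the retrogene Mcts2 had -0.04 ± 0.18. For CFZ_EA against CFZ the medians of the maternal and paternal lists were -0.04 and 0.03, against -0.01 over all tested genes, while those relative to control were 0.03 and -0.01. In neither of these 2 comparisons did any gene of either list pass by edgeR or DESeq2, and 1 paternal gene had an unadjusted p under 0.05, for CFZ_EA against CFZ.

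**Figure D3:**
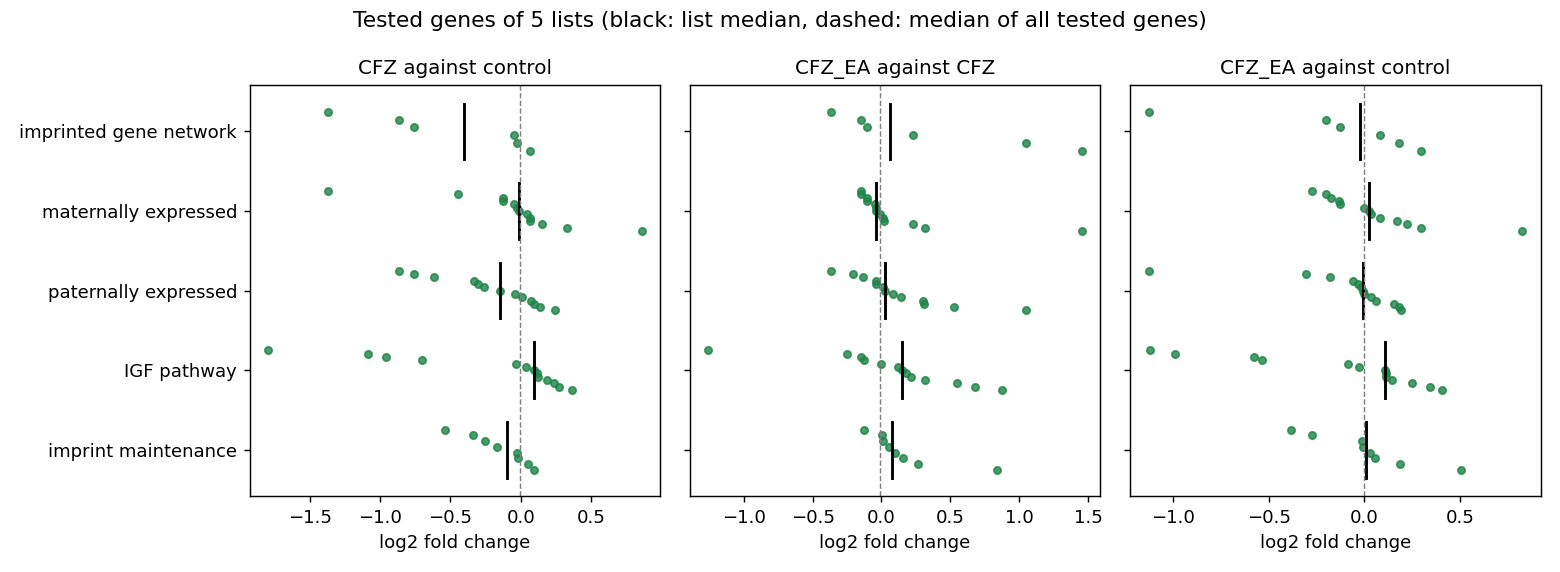
Log2 fold changes (horizontal axes) of the tested genes of 5 lists, 1 point per gene, the 10 genes included in the lists they belong to, with the list median in black and the median of all tested genes as a dashed line. In the CFZ panel Igfbp6, at -1.79, is the lowest point of the IGF pathway, and H19, picked for its low CFZ values, is at -1.37. Genes under 1 FPKM, such as the maternally expressed Rian at -1.55 and Mirg at -1.46, are not drawn.

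Of the 5 tested genes of IGF binding proteins, which hold the ligands outside the cell, 4 (Igfbp4, Igfbp5, Igfbp6 and Igfbp7) had both CFZ libraries below both control libraries, where 20.8% of all tested genes did, and Igfbp3 overlapped. None of the 5 passed edgeR's test. Igf1, the other ligand, was under 1 FPKM on average, at 0.689 and 1.73 FPKM in control, 0.447 and 0.475 in CFZ, and 0.478 and 0.835 in CFZ_EA, and its FPKM was between 0.0634 and 0.183 of that of Igf2. Its receptor Igf1r measured between 0.560 and 0.763 FPKM over the 6 libraries. The insulin receptor gene Insr measured 4.05 and 1.57 FPKM in control, 3.28 and 3.36 in CFZ, and 1.42 and 1.34 in CFZ_EA. These 3 were named for their roles rather than by the naming rule.

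Of 24 pathway genes 13 were tested. Relative to control, 8 were higher and 5 lower in CFZ (median log2 fold change 0.09). Igfbp7 measured 99.1 and 196 FPKM in control, 89.5 and 83.1 in CFZ, and 89.6 and 96.4 in CFZ_EA. Igfbp4 measured 32.7 and 71.0, 23.4 and 22.7, and 27.995 and 39.1 FPKM in the same order. Igfbp6, which binds IGF2 more tightly than IGF1, measured 27.6 and 59.1, 11.3 and 12.4, and 14.9 and 22.6 FPKM. In these 3 genes control replicate 2 was the highest library. The other tested binding protein genes, added after their values were seen, went differently: Igfbp5 measured 30.5 and 26.2 FPKM in control, 17.4 and 11.1 in CFZ, and 18.1 and 33.1 in CFZ_EA, with CFZ_EA replicate 2 the highest. Igfbp3 measured 9.64 and 11.5, 13.5 and 8.26, and 14.7 and 12.1 FPKM, with a log2 fold change of 0.09 ± 0.22 in CFZ. The log2 fold changes of Igfbp7, Igfbp4 and Igfbp6 for CFZ against control were -0.70 ± 0.27, -1.09 ± 0.34 and -1.79 ± 0.37, and none passed by edgeR (adjusted p = 0.621, 0.608 and 0.608). By edgeR 0 of the 13 passed, 4 at an unadjusted p under 0.05, while DESeq2 called 1, Igfbp6. The kinase gene Akt1 had 0.12 ± 0.11. For CFZ_EA against CFZ 8 were higher and 5 lower (median 0.15, 0 called by edgeR or DESeq2, 2 at an unadjusted p under 0.05), and for CFZ_EA against control 7 were higher and 6 lower (median 0.11, 0 called by edgeR or DESeq2, 1 at an unadjusted p under 0.05).

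Genes that read or maintain imprints were measured alongside. Of 18 listed, 8 were tested. Relative to control, 6 were lower and 2 higher in CFZ (median log2 fold change -0.10). By edgeR and DESeq2 0 passed in any comparison, and 0 had an unadjusted p under 0.05. Ctcf, whose protein binds the insulator between H19 and Igf2, measured between 3.51 and 3.96 FPKM over the 6 libraries and had log2 fold changes of -0.03 ± 0.13, 0.06 ± 0.13 and 0.03 ± 0.13. The corepressor Trim28 had -0.02 ± 0.13 and the cohesin subunit Rad21 had 0.05 ± 0.13 for CFZ against control. The cohesin subunit Smc3 had -0.54 ± 0.36, and the zinc finger gene Zfp445 had -0.34 ± 0.36. For CFZ_EA against CFZ the median of the list was 0.08, and for CFZ_EA against control it was 0.01.

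Around the H19 and Igf2 pair, 12 gene models were listed within 150 kb, and 6 were tested. Among the neighbours, the mitochondrial ribosomal protein gene Mrpl23 measured between 11.6 and 13.4 FPKM in all libraries, and its log2 fold change in CFZ was 0.16 ± 0.10 relative to control (edgeR adjusted p = 0.722). Tnni2, fast skeletal troponin I, measured 1.86 and 1.72 FPKM in control, 0.715 and 0.502 in CFZ, and 0.805 and 1.18 in CFZ_EA, with -1.499 ± 0.35 (edgeR adjusted p = 0.608). Lsp1, a leukocyte actin-binding protein gene, measured 13.4 FPKM in control replicate 2 and between 4.13 and 5.94 FPKM in the other 5. Igf2os, antisense to Igf2, held 0.646% of the counts of Igf2.

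The 8 genes whose pattern over the 6 libraries was most like that of H19, by Pearson's r of log2(CPM + 0.5), were Cnn1, Mill2, Plvap, Adam9, Golgb1, Fstl3, Adamts10 and Ece1. Their r ran from 0.970 to 0.993, and 100 of 10329 tested genes were above 0.9. Cnn1, smooth muscle calponin, measured 1.80 and 3.23 FPKM in control, 0.842 and 1.11 in CFZ, and 1.54 and 3.44 in CFZ_EA. Plvap, an endothelial diaphragm protein gene, measured 12.8 and 27.2, 4.31 and 6.95, and 12.3 and 20.8 FPKM. Fstl3, a secreted activin inhibitor, measured 2.14 and 3.29, 0.988 and 1.39, and 1.74 and 2.64 FPKM. None of these 8 is an imprinted gene of the lists above. Among the others of the 10 genes, r with H19 was 0.86 for Plagl1, 0.82 for Igf2, 0.74 for Peg3, 0.64 for Meg3, 0.34 for Mest and 0.28 for Dlk1, and it was -0.02 for Cdkn1c, -0.13 for Igf2r and -0.54 for Grb10. With 6 points from 3 groups these values describe likeness only.

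**Figure D4:**
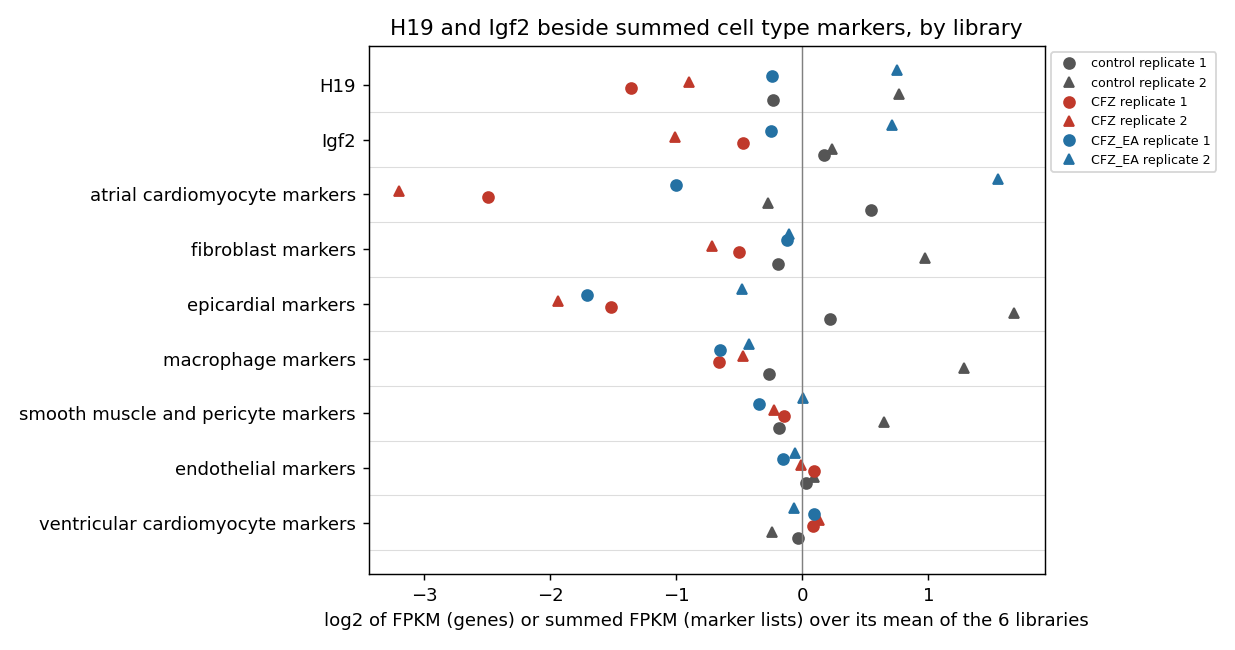
H19 and Igf2 (FPKM) and 7 lists of cell type markers (summed FPKM) in each library, as log2 of the value over its mean of the 6 libraries (horizontal axis). The CFZ libraries are the 2 lowest for H19, Igf2 and the atrial and fibroblast markers, and the endothelial and ventricular markers vary least.

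Markers of several cell types also differed between the libraries, and their part in these results was not tested. Fewer cells of a type and less RNA per cell cannot be told apart in pieces of bulk tissue, and the region of the heart sampled is not among the labels. The 13 fibroblast markers summed to 787 and 1769 FPKM in control, 634 and 546 in CFZ, and 824 and 834 in CFZ_EA, with Gsn and Dpt the most abundant. Gsn averaged 554 FPKM and weighed most in this sum. Taken singly, 13 of the 13 had both CFZ libraries below both control libraries, where 2148 of the 10329 tested genes did. In CFZ_EA 11 of the 13 had both libraries above both CFZ libraries, where 1555 of the 10329 did. Against control, 12 of the 13 were lower in CFZ_EA, where 50.3% of all tested genes were. Their median log2 fold change was -0.84, and 0 passed edgeR's test. The 10 atrial cardiomyocyte markers, led by Nppa and Myl7, summed to 2864 and 1622, 347 and 213, and 978 and 5730 FPKM. The 9 epicardial markers, led by Upk3b and Aldh1a2, summed to 24.5 and 67.5, 7.38 and 5.52, and 6.47 and 15.1 FPKM. In the fibroblast and atrial sums both CFZ libraries were below the other 4, as for H19. In the epicardial sum CFZ_EA replicate 1 was low as well. Lower than control without overlap in CFZ were 7 of 8 tested atrial and 6 of 6 tested epicardial markers, with 0 higher. The 10 macrophage markers, led by Lyz2 and C1qa, summed to 931 FPKM in control replicate 2 and between 243 and 319 FPKM elsewhere. The 8 smooth muscle and pericyte markers, led by Acta2 and Rgs5, and Cnn1 among them, summed to 188 and 336, 193 and 183, and 168 and 215 FPKM. No marker of these 5 lists was at 0 in any library. The 10 endothelial markers, led by Cdh5 and Tie1, ran from 186 to 221 FPKM, and no ventricular cardiomyocyte marker was at 0 in any library. The 10 ventricular markers, led by Mb and Actc1, summed to 33127 and 28663 FPKM in control, 35963 and 37079 in CFZ, and 36104 and 32301 in CFZ_EA. Opposite to H19 and Igf2, 10 of 10 were higher in CFZ than in control, where 5109 of 10329 tested genes were. Without overlap 7 of the 10 were higher, where 1296 of the 10329 tested genes were. Their median was 0.27 on the log2 scale, and 0 passed edgeR's test. The 5 erythroid markers, led by Hbb-bs and Hba-a1, summed to 4962 and 5666 FPKM in control, 2654 and 3316 in CFZ, and 2466 and 3470 in CFZ_EA. As for Mest and Meg3, both carfilzomib groups lay below control without overlap, in 5 of 5 of these markers. Over the 10329 tested genes, 2148 lay below control in that way in CFZ and 2287 in CFZ_EA, and those that did so in both were not counted. By edgeR 0 of the 5 markers passed. Summed FPKM of the 7 adipocyte markers, led by Fabp4 and Cfd, ran from 93.3 to 157, the 6 measured skeletal muscle markers, led by Acta1 and Tnni2, from 25.8 to 401, and the 10 cell cycle genes, led by Pcna and Mcm5, from 11.4 to 20.9. Fabp4 averaged 113 FPKM, Acta1 216 and Pcna 9.09, so these genes weighed most in the 3 sums. Mki67, Top2a, Ccnb1, Cdk1, Ccna2 and Bub1, all under 1 FPKM, had both CFZ libraries below both control libraries. Of all listed genes 20.7% did so. Plk1, Mcm2, Mcm5 and Pcna overlapped.

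Control replicate 2 stood apart from the other libraries. On a principal component analysis its score on the leading axis (40.8% of the variance) was 43.5, against -17.6 to -0.785 for the other 5. It also had the lowest mitochondrial share of counts, 14.8% against 17.9% to 21.3%. Its values are the highest of the 6 libraries for H19, Meg3, Mest, Igfbp4, Igfbp6 and Igfbp7, and the part of this difference between libraries in those results was not tested. Estimated counts summed to between 50013990 and 75742448 in a library, so that 3 counts correspond to 0.0396 to 0.0600 CPM. Without control replicate 2 and CFZ_EA replicate 2 together, which was chosen after seeing the data, the log2 fold changes of H19 were -0.88, 0.86 and -0.02 and those of Igf2 were -0.90, 0.47 and -0.43 for CFZ against control, CFZ_EA against CFZ and CFZ_EA against control.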

How the data were processed

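Polyadenylated RNA from mouse hearts was measured in 6 libraries, 2 per group. RNA was selected on oligo(dT) and dUTP, which can mark the strand, was used in library making, per the labels' protocols, and an Illumina NovaSeq instrument was used. HISAT2 2.0.4, StringTie 1.3.4d, cutadapt 1.9 and the build GRCm38 are named, without roles, in the submitters' processing notes. For the annotation release, the filters and the strand setting of the counting, the sources used here give nothing. The deposited table has, per the file headers, 1 FPKM column by the authors and 1 count column for each library. The deposited counts were taken as estimated counts, not raw reads, and rounded. Between 42.2% and 43.3% of counts from 1 to 20 were multiples of 4, so 1 count need not equal 1 read. Gene coordinates are those of the table. RefSeq (GRCm38.p6) gave the promoter and microRNA sequences, and GENCODE M21 gave the transcripts.

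The 10329 genes averaging 1 FPKM or more were tested with edgeR's quasi-likelihood test, TMM factors (0.957 to 1.08), and group as the only term over all 6 libraries (3 residual degrees of freedom). A gene was called at a Benjamini-Hochberg adjusted p under 0.05. SEs come from the same fit. The fit was also run on simulated counts as a check of the steps, and no result above rests on that run. Fits ran in R 4.3.3 with edgeR 4.0.16, and with DESeq2 1.42.0 and limma 3.58.1 as alternatives; tables were made in Python 3.11.15. An exact test of 2 against 2 libraries was not used, since it cannot reach the threshold. Named genes were the 10 genes, per list the 3 with the highest mean FPKM and the 2 with the largest change in CFZ, any called gene, and the 8 most like H19. The 10 genes and the lists were chosen with earlier results of these data known. Alternatives covered the filter, scaling, test, groups in the fit, replicate block and each library left out. Leaving out 2 libraries together and dividing counts by 4 were added after seeing the data.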

Additional observations from a re-analysis of the deposited data

How the results depend on the processing

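The directions of H19 (-1.74 to -0.88), Igf2 (-1.11 to -0.66), Mest (-0.996 to -0.48), Plagl1 (-1.42 to -0.29), Peg3 (-0.87 to -0.20), Meg3 (-1.52 to -0.53) and Dlk1 (-1.34 to -0.04) for CFZ against control held in every alternative run, in log2 fold change. The Plagl1, Peg3 and Dlk1 values nearest 0 came from limma on log2(FPKM + 1), whose pseudocount exceeds their FPKM. For CFZ_EA against CFZ, Peg3 (0.73) was -0.18 without CFZ_EA replicate 2 and Dlk1 (0.45) was -0.26 without CFZ_EA replicate 1. H19, Peg3, Plagl1 and Dlk1 for CFZ_EA against control also turned sign with 1 library left out, to -0.52, -0.80, -0.82 and 0.30 without CFZ_EA replicate 2. Other differences turned sign as well. Igf2r for CFZ against control was 0.024 with filterByExpr, 0.026 with no filter, 0.069 without control replicate 2 and CFZ_EA replicate 2 together, and -0.17 to 0.11 with single libraries left out; Grb10 there ran from -0.21 to 0.094. The same settings gave Igf2r -0.23 to 0.042 and Grb10 -0.29 to 0.013 for CFZ_EA against CFZ. They gave Igf2 -0.40 to 0.60 for CFZ_EA against control, and it was -0.43 without both replicates 2. Called genes over the whole table, 3, 2 and 0 for CFZ against control, CFZ_EA against CFZ and CFZ_EA against control, were 138, 55 and 51 with DESeq2. Leaving out single libraries gave 0 to 332, 0 to 4 and 0 to 231, with a lone remaining library assumed to vary like the other groups; the counts of 332 and 231 came without control replicate 1, and the cause was not tested. For CFZ against control 0 were called in the fit of the 2 groups compared, 32 without control replicate 2 and CFZ_EA replicate 2 together, where 1 was called for CFZ_EA against control, and 1 with counts divided by 4, as for CFZ_EA against CFZ. With the replicate block the counts were 2, 2 and 0. The replicate numbers are not said to pair the samples, and deviations of same-numbered libraries correlated at -0.06, -0.03 and 0.09. Among the medians of the lists, which lie near 0, 37 values under the alternatives moved by more than the spread used to judge them. The low counts of Dlk1 limit what can be said of it.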

Other observations

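Zfp57, a zinc finger protein that protects imprints in the early embryo and was chosen here after its values were seen, measured 0.410 and 0.315 FPKM in control, 0.175 and 0.145 in CFZ, and 0.309 and 0.280 in CFZ_EA. Both CFZ libraries lay below the other 4, at a level under that used for testing. Uhrf1, a cofactor of maintenance DNA methylation, was chosen in the same way. It measured 0.453 and 1.39 FPKM in control, 0.179 and 0.326 in CFZ, and 0.173 and 0.296 in CFZ_EA, so that both carfilzomib groups lay below control. Without a filter, the edgeR adjusted p for CFZ against control was 0.719 for Zfp57 and 0.716 for Uhrf1. Of all listed genes 20.7% lay below control without overlap in CFZ and 18.2% in CFZ_EA. Of the 8 tested genes that read or maintain imprints, 2 did so in CFZ. Ndn, a paternally expressed gene of the Prader-Willi region chosen in the same way, measured 3.08 and 5.68 FPKM in control, 2.61 and 2.81 in CFZ, and 3.40 and 3.29 in CFZ_EA, and its log2 fold change for CFZ against control was -0.62.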
